A study of Homo sapiens with 5 samples.

Results

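The genes described here carry growth factor and stress signals through the MAP kinase pathways, and 10 probe sets of 4 of them were measured in C4-2B prostate cancer cells. The members were chosen as all probe sets that the platform gene table assigns to 1 of 8 listed genes alone, namely HRAS, NRAS, BRAF, MAP2K6, MAP2K3, MAPK14, MAPK13 and MAPK8. These were 1 probe set of HRAS, 2 of MAP2K6, 2 of MAPK13 and 5 of MAPK8, of 41091 probe sets with 1 gene symbol and 54613 in all. The 3 probe sets of MAP2K3 share their assignment with the pseudogene LOC100996792 and were left out. NRAS, BRAF and MAPK14 were not analysed here, so no RAF kinase and no p38α kinase is among the members.

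RNA from C4-2B cells, which derive from LNCaP prostate cancer cells and metastasise to bone, was hybridised to 5 Human Genome U133 Plus 2.0 arrays, and each condition had 1 array. The conditions were 25 µM BR-DIM for 6 h, 25 µM BR-DIM for 48 h, 25 µM isoflavone for 6 h, 25 µM isoflavone for 72 h, and a control with 0.1% DMSO. BR-DIM, which the labels call B-DIM, is a formulated 3,3′-diindolylmethane, a compound derived from cruciferous vegetables, and isoflavone is the soy mixture G2535, whose concentration counts its genistein. How long the control was kept in culture is not stated in the sources used here. Values are linear signal intensities that the authors had already scaled, and the mean signal of each array after trimming 2% of each tail lay between 498.1 and 498.4. Signals under 97.1, the median of all signals, were raised to that floor before a ratio was taken, so a ratio in which either signal was raised is a bound. Without replicates no difference could be set against the spread between replicates, no p-value is given, and a difference of 2-fold or more (a log2 ratio of 1 or more in size) is a rule of size only.

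HRAS is a small GTPase that switches on when growth factor receptors recruit exchange factors, and it then engages RAF kinases and PI3 kinase. Stress and cytokine signals run through parallel chains, in which a MAP kinase kinase such as MAP2K6 phosphorylates p38 kinases, among them MAPK13 (p38δ), while MAPK8 (JNK1) phosphorylates the transcription factor JUN. In prostate cancer these chains are studied as outputs of growth factor and cytokine receptors and as routes of the response to RANKL. They act mainly through phosphorylation, which an RNA array does not measure.

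The arrays labelled BR-DIM 48 h and isoflavone 6 h stood apart from the other 3 in genes that mark prostate epithelium. Of 12 such markers, 10 had a probe set, and their summed signal was 13686.4 after 6 h of BR-DIM, 1902.5 after 48 h of BR-DIM, 1384.2 after 6 h of isoflavone and 15278.4 after 72 h of isoflavone, against 15866.9 in the control. All 10 were at least 2-fold lower than the control after 48 h of BR-DIM and after 6 h of isoflavone. After 6 h of BR-DIM 0 were, and after 72 h of isoflavone 2 were. Those 2 were KLK3 (1544.8 against 5095.8 in the control) and KLK2 (124 against 706.7). Others were above the control on that array, among them EHF (4347.1 against 2774.9), so its sum combines opposite changes. CDH1, which encodes E-cadherin, read 2113.5 after 6 h of BR-DIM, 99.5 after 48 h of BR-DIM, 85.9 after 6 h of isoflavone and 3736.4 after 72 h of isoflavone, against 2194.9 in the control. After 48 h of BR-DIM and after 6 h of isoflavone 5 of the 10 markers lay under the floor, so the labelled cell type is poorly marked there. Whether the RNA on these arrays came from cells like those on the other 3 was not tested. The mesenchymal filament gene VIM read 30013.3 after 6 h and 50009 after 48 h of BR-DIM. It read 33275.4 after 6 h and 40167.2 after 72 h of isoflavone, against 22023.9 in the control. VIM was thus above the control on all 4 treated arrays. It belongs to a list of 5 markers of basal or other prostate lines, of which 4 had a probe set. In that list CD44 had log2 ratios to the control of -0.78 after 6 h and 1.25 after 48 h of BR-DIM. After 6 h and 72 h of isoflavone CD44 had -0.43 and 0.62. KRT5 and KRT14 were under the floor on all 5 arrays. The fibroblast and osteoblast list summed to between 1722.3 and 3126.8 on the treated arrays, against 2054.8 in the control. These sums combine opposite changes. COL3A1 was at least 2-fold higher after 6 h of BR-DIM (350.7 against 150.1 in the control). RUNX2 was at least 2-fold lower after 6 h of isoflavone (37.6, under the floor, against 313.6 in the control). After 48 h of BR-DIM RUNX2 read 508, above the control. The list of macrophages and osteoclasts summed to between 181.7 and 376.3 on the treated arrays, against 291.9 in the control. In it PTPRC and CD14 were under the floor on all 5 arrays, and CTSK was a little over it on all 5 (101 to 137.6). ITGAM was over the floor only after 48 h of BR-DIM (156.6) and 6 h of isoflavone (128.8). CSF1R was over it only after 72 h of isoflavone (98.3). In bulk RNA, fewer cells of a type and less RNA per cell cannot be told apart.

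**Figure D1:**
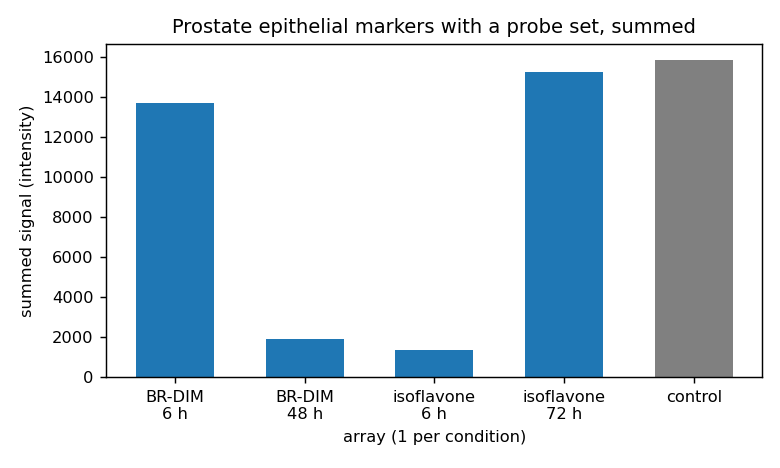
Summed signal (linear intensity, vertical axis) of the 10 prostate epithelial markers with a probe set on each of the 5 arrays, 1 bar per array, with no replicates. The sums after 48 h of BR-DIM (1902.5) and after 6 h of isoflavone (1384.2) lie far below the control (15866.9), while 6 h of BR-DIM (13686.4) and 72 h of isoflavone (15278.4) lie near it.

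HRAS and MAP2K6 were the member genes with a probe set at least 2-fold from the control, and both were lower. The windows from 250 bases before to 50 bases after their annotated starts are shown for that reason, from RefSeq on GRCh38.p14, 5′ to 3′ on the gene's strand. Capitals mark GGGCGG, the GC box bound by SP1 family factors, read on both strands. HRAS lies on the minus strand (chr11:535527-535826), and MAP2K6 has starts at 2 places on the plus strand (chr17:69414447-69414746 and chr17:69502012-69502311). Which start the probe sets of MAP2K6 report was not tested.
HRAS: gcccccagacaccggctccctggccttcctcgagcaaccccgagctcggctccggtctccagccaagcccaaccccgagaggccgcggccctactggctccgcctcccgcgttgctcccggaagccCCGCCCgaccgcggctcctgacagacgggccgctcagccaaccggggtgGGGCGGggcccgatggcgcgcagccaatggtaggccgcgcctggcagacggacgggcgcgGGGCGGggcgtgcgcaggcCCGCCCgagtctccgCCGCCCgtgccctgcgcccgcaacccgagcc
MAP2K6 upstream start: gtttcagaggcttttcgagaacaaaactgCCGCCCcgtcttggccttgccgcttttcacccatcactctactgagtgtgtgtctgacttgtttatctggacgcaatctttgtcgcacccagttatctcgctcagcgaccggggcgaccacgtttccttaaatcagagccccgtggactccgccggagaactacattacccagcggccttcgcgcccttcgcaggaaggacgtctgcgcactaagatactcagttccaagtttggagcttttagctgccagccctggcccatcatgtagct
MAP2K6 downstream start: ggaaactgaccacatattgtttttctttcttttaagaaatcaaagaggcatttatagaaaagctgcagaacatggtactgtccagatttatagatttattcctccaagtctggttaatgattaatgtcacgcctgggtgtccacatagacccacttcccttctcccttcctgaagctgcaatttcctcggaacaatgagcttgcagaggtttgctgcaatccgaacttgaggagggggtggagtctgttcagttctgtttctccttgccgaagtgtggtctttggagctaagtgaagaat
The HRAS window was 78% G and C with 5 GC boxes, the upstream MAP2K6 window 55% with 1, and the downstream one 43.3% with 0, where the median of all 35116 windows of this length was 58.7% and 45.0% of them held the GC box. GCGTG, the core bound by the aryl hydrocarbon receptor, matched once in the HRAS window and once in the downstream MAP2K6 window, in 36.5% of all windows. TATAAA matched at 2 places in the downstream MAP2K6 window and at 0 in the others, with 11.5% of all windows holding it. The AP-1 motif TGACTCA and the cAMP response element TGACGTCA matched in 0 of these 3 windows and in 4.95% and 1.85% of all windows. Both strands were searched, matches of different motifs may overlap, and a match describes letters only.

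HRAS gave its lowest signal after 48 h of BR-DIM. Its single probe set, 212983_at, read 1649.4 after 6 h of BR-DIM, 784.0 after 48 h of BR-DIM, 1871.1 after 6 h of isoflavone and 1332.9 after 72 h of isoflavone, against 2221.6 in the control. Every treated array was below the control, and all 5 signals were well over the floor. The log2 ratios of these arrays to the control were, in that order, -0.43, -1.50, -0.25 and -0.74. By the rule of size HRAS fell after 48 h of BR-DIM alone, where the central 90% of all measured probe sets lay between -0.96 and 0.99. The low epithelial signal after 48 h of BR-DIM was shared by the array after 6 h of isoflavone, and there HRAS had its smallest difference from the control of the 4 treated arrays. The part of that signal in the HRAS values was not tested. Compared between times, HRAS was at least 2-fold lower after 48 h of BR-DIM than after 6 h of BR-DIM (log2 ratio -1.07), while the ratio of the later to the earlier isoflavone array was -0.49.

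MAP2K6, the kinase that activates p38, was lower than the control on every treated array by both of its probe sets. The brighter probe set, 205698_s_at, read 1118.8 after 6 h of BR-DIM, 589.0 after 48 h of BR-DIM, 685.0 after 6 h of isoflavone and 578.5 after 72 h of isoflavone, against 1299.7 in the control. The earlier BR-DIM array stayed near the control by this probe set, and the other 3 arrays were at about the same low level. Its log2 ratios were -0.22, -1.14, -0.92 and -1.17 in the same order, past 2-fold after 48 h of BR-DIM and 72 h of isoflavone. The dimmer probe set, 205699_at, read 68.1 after 6 h of BR-DIM, 61.8 after 48 h of BR-DIM, 45.6 after 6 h of isoflavone and 109.8 after 72 h of isoflavone, against 231.3 in the control. It lay under the floor on 3 treated arrays, which gives a bound of -1.25 there, and it was -1.07 after 72 h of isoflavone, so it was at least 2-fold lower on all 4. With the floor added to both signals in place of raising them, 0 member probe sets passed 2-fold after 6 h of BR-DIM. The probe sets thus differ most after 6 h of BR-DIM, where the brighter was -0.22 and the dimmer at or below -1.25. Both probe sets saw the 2-fold fall after 72 h of isoflavone, on an array whose epithelial markers summed close to the control. On it the markers KLK3 (log2 ratio -1.72) and KLK2 (-2.51) were still at least 2-fold lower. The part of the epithelial markers in the MAP2K6 values was not tested on any array.

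MAPK13, the p38 isoform p38δ, was dim on all arrays. Probe set 210058_at read 185.1 after 6 h of BR-DIM, 72.4 after 48 h of BR-DIM, 62.8 after 6 h of isoflavone and 145.9 after 72 h of isoflavone, against 182.9 in the control. It was under the floor on the arrays with low epithelial markers and over it on the other 3. The log2 ratio was 0.02 after 6 h of BR-DIM and -0.33 after 72 h of isoflavone, with a bound of -0.91 on both others. The second probe set, 210059_s_at, read 155.6 after 6 h of BR-DIM, 8.4 after 48 h of BR-DIM, 35.1 after 6 h of isoflavone and 16.9 after 72 h of isoflavone, against 132.0 in the control. It was under the floor on those arrays and after 72 h of isoflavone too, each with a bound of -0.44, and was 0.24 after 6 h of BR-DIM. Neither probe set reached 2-fold. Where the treated signal was over the floor, it lay within 2-fold of the control. Where it was under the floor, a larger fall could not be measured, because the control signals lay less than 2-fold over the floor. MAPK13 moved together with the epithelial markers after 48 h of BR-DIM and 6 h of isoflavone, and the part of those markers in its values was not tested.

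MAPK8, the JNK1 kinase, stayed within 2-fold of the control on all 4 treated arrays by each of its 5 probe sets. The brightest, 226048_at, read 1758.2 after 6 h of BR-DIM, 1606.3 after 48 h of BR-DIM, 2098.4 after 6 h of isoflavone and 1543.3 after 72 h of isoflavone, against 1228.5 in the control. Every treated array was above the control by this probe set, and the array after 6 h of isoflavone was highest. Its log2 ratios to the control were 0.52, 0.39, 0.77 and 0.33 in the same order.
The other probe sets of MAPK8 did not all lie on the same side of the control, and those whose ID ends in _x_at can bind related transcripts too. Probe set 226046_at read 526.1 after 6 h of BR-DIM, 416.9 after 48 h of BR-DIM, 753.4 after 6 h of isoflavone and 573.3 after 72 h of isoflavone, against 485.7 in the control. Like the brightest one it was highest after 6 h of isoflavone. Probe set 229664_at read 332.3 after 6 h of BR-DIM, 351.5 after 48 h of BR-DIM, 553.9 after 6 h of isoflavone and 479.7 after 72 h of isoflavone, against 552.2 in the control. It was low on both BR-DIM arrays, where the brightest one was above the control. Probe set 210477_x_at read 306.3 after 6 h of BR-DIM, 223.7 after 48 h of BR-DIM, 312.6 after 6 h of isoflavone and 264.1 after 72 h of isoflavone, against 350.0 in the control. All of its treated signals were below the control. Probe set 210671_x_at read 464.0 after 6 h of BR-DIM, 468.5 after 48 h of BR-DIM, 394.7 after 6 h of isoflavone and 219.0 after 72 h of isoflavone, against 293.1 in the control. It was above the control on 3 treated arrays and below it after 72 h of isoflavone.
The log2 ratios of the 5 MAPK8 probe sets ranged from -0.73 to 0.66 after 6 h of BR-DIM, from -0.65 to 0.68 after 48 h of BR-DIM, from -0.16 to 0.77 after 6 h of isoflavone and from -0.42 to 0.33 after 72 h of isoflavone. Of the 5, the number above the control was 3 and 2 at the earlier and later time of BR-DIM and 4 and 2 at those of isoflavone, and no direction for the gene as a whole follows from these values.

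**Figure D2:**
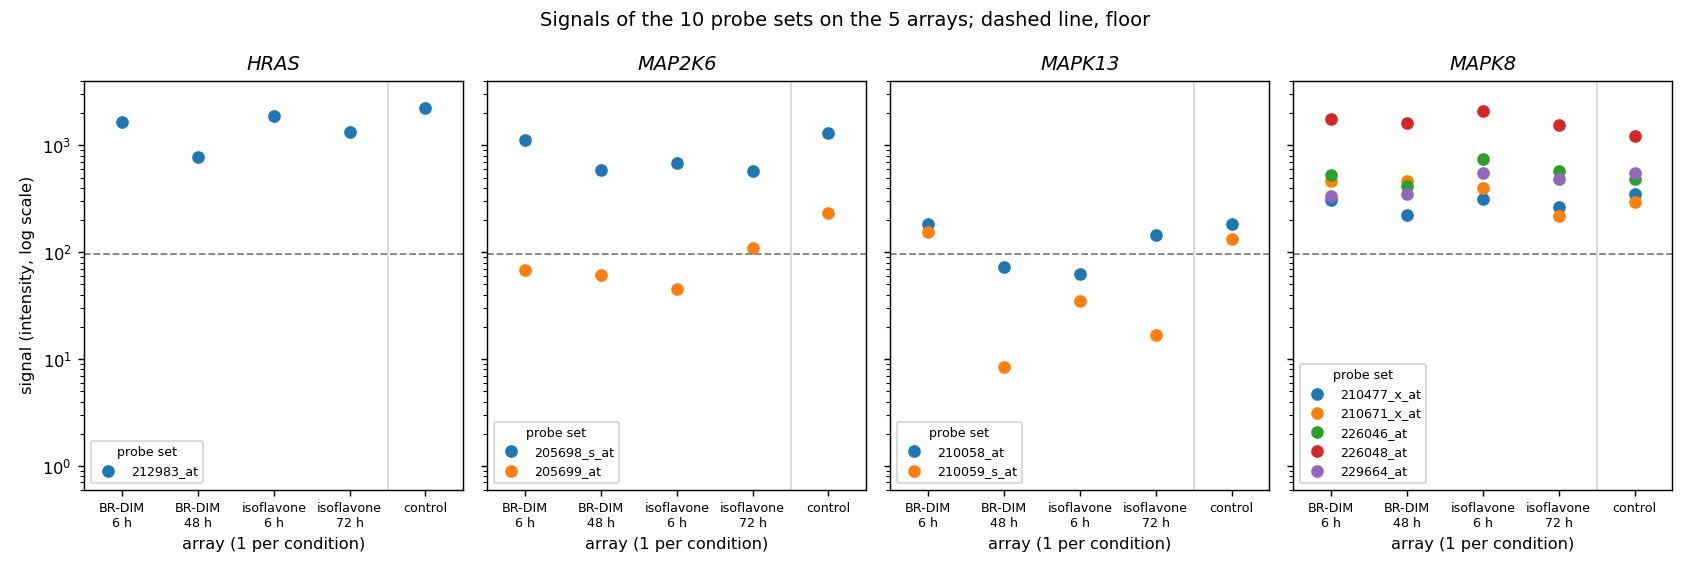
Signal (linear intensity on a log axis) of each member probe set on the 5 arrays, 1 panel per gene and 1 point per array, with the floor of 97.1 as a dashed line and no replicates. HRAS is lowest after 48 h of BR-DIM (784.0), and both MAPK13 probe sets are under the floor after 48 h of BR-DIM and 6 h of isoflavone.

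The members past 2-fold were counted on each array. All 10 probe sets were measured on each treated array, that is, above the floor on it or on the control. After 6 h of BR-DIM, 1 was at least 2-fold lower and 0 higher, beside 1.38% and 2.56% of 25101 measured probe sets with 1 gene symbol. After 48 h of BR-DIM, 3 were lower and 0 higher, beside 4.41% and 4.82%. After 6 h of isoflavone, 1 was lower and 0 higher, beside 3.52% and 1.18%, and after 72 h of isoflavone, 2 were lower and 0 higher, beside 3.19% and 4.21%. After 6 h of either compound the 1 fall is the dimmer MAP2K6 probe set. It counts as measured there through the control alone and so could only fall. The same holds for its fall after 48 h of BR-DIM, 1 of the 3 counted. It also holds for both MAPK13 probe sets after 48 h of BR-DIM and 6 h of isoflavone. After 72 h of isoflavone it holds for the MAPK13 probe set 210059_s_at. Such values could only be negative, and they enter the member medians given below. The 7 falls come from 3 probe sets of HRAS and MAP2K6, so they are not 7 separate genes, and the 4 comparisons share the control array. Epithelial markers summed near the control after 6 h of BR-DIM and 72 h of isoflavone. On these arrays 1 and 2 of the 10 probe sets were at least 2-fold lower, all of MAP2K6. Counting falls of any size, 5 and 8 of the 10 were below the control, HRAS among them on both arrays. The median log2 ratio of the members was -0.09 and -0.65 at the earlier and later time of BR-DIM, beside 0.04 and 0.03 over all measured probe sets. At the times of isoflavone it was -0.21 and -0.41, beside -0.01 and 0.00. With 5 of 10 probe sets from MAPK8, these medians weigh the genes unequally.

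**Figure D3:**
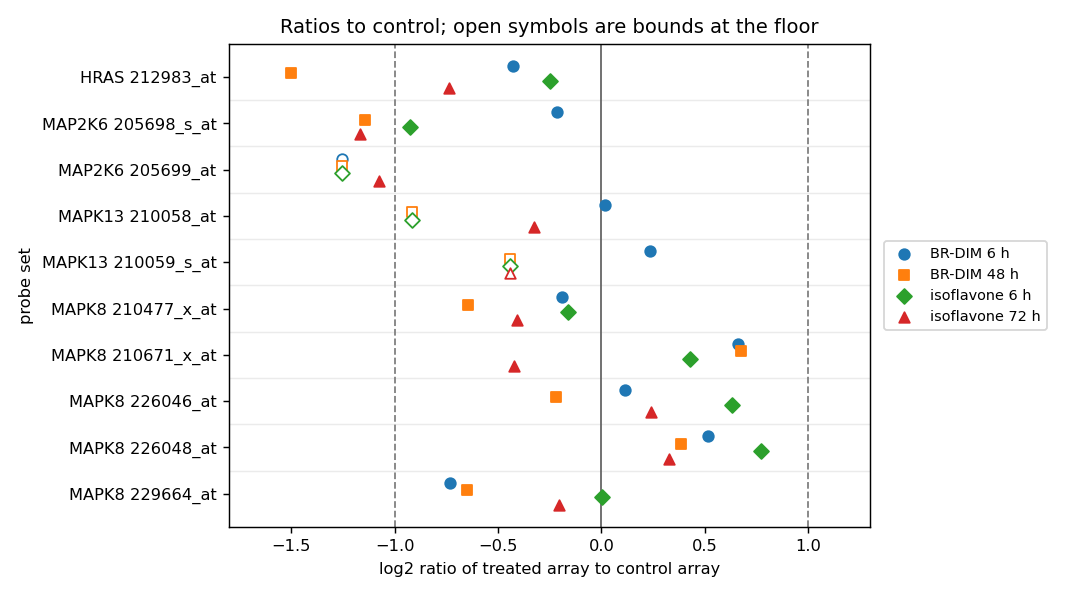
Log2 ratio of each treated array to the control (horizontal axis) for the 10 member probe sets (vertical axis), with 1 array per condition, dashed lines at 2-fold and open symbols for bounds at the floor. Points past -1 belong to HRAS after 48 h of BR-DIM (-1.50) and to MAP2K6, and MAPK8 spreads on both sides of 0.

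Only the 6 h arrays of the compounds share a time and a nominal dose of 25 µM, which for G2535 is its genistein, and the ratio of these arrays leaves the control out. Of the 10 probe sets, 9 were measured, and 0 were at least 2-fold higher or lower after 6 h of BR-DIM than after 6 h of isoflavone, beside 5.86% higher and 1.57% lower of 25207 probe sets. The brighter MAP2K6 probe set read 1118.8 after 6 h of BR-DIM and 685.0 after 6 h of isoflavone (log2 ratio 0.71), MAPK13 by 210058_at had at least 0.93, and MAPK8 by 229664_at had -0.74. HRAS had -0.18. The absence of a 2-fold difference does not show that the compounds act alike on these genes, and the low epithelial signal of that isoflavone array cannot be told apart from the compound here.
Between the times of BR-DIM, 1 of 9 measured probe sets, HRAS, was at least 2-fold lower at 48 h and 0 were higher, beside 3.69% and 2.05% of 25713. The brighter MAP2K6 probe set followed with -0.93 and MAPK13 by 210058_at with a bound of -0.93. Between the times of isoflavone, 0 of 9 were 2-fold lower or higher at 72 h, beside 2.75% and 6.49% of 24272. All 5 MAPK8 probe sets were lower after 72 h of isoflavone than after 6 h of isoflavone, with log2 ratios from -0.85 to -0.21.

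The wider pathway was described with a list of 85 genes that run from RAS exchange factors to the transcription factors phosphorylated by ERK, p38 and JNK. Of these, 75 had a probe set, and each gene was represented by its brightest. After 6 h of BR-DIM, 0 of 70 measured genes were at least 2-fold higher and 0 lower, beside 2.86% and 0.806% of 13020 genes. After 48 h of BR-DIM, 4 of 71 were higher and 4 lower, beside 5.33% and 3.87% of 12921. After 6 h of isoflavone, 2 of 69 were higher and 0 lower, beside 1.18% and 3.82% of 12456, and after 72 h of isoflavone, 3 of 70 were higher and 1 lower, beside 4.8% and 2.06% of 12604. The list medians on these 4 arrays were, in the same order, 0.06, 0.21, -0.0041 and 0.07, beside 0.07, 0.06, 0.0035 and 0.05 over all measured genes. The list includes the members, so its falls after 48 h of BR-DIM count HRAS and MAP2K6, and its fall after 72 h of isoflavone is MAP2K6. Without the members, 2 of 67 genes were at least 2-fold lower after 48 h of BR-DIM and 0 of 66 after 72 h of isoflavone. Most of the pathway thus lay within 2-fold of the control on each array. When all probe sets of a gene were averaged, 1 gene was at least 2-fold higher after 48 h of BR-DIM and 0 were after either time of isoflavone, so most of the rises named here rest on the brightest probe set of the gene.
RPS6KA2, which encodes the ERK-activated kinase RSK3, had the highest ratio to the control among genes of the list over the floor on both arrays compared. It read 997.0 after 6 h of BR-DIM, 1171.6 after 48 h of BR-DIM, 1128.7 after 6 h of isoflavone and 1494.8 after 72 h of isoflavone, against 522.0 in the control. It was above the control on all 4, and past 2-fold after 48 h of BR-DIM (log2 ratio 1.17), 6 h of isoflavone (1.11) and 72 h of isoflavone (1.52), with 0.93 after 6 h of BR-DIM. The highest value is on an array whose epithelial markers summed near the control, and the part of those markers in the RPS6KA2 values was not tested. By the mean of its probe sets RPS6KA2 was not 2-fold higher on either isoflavone array.
Among GTPases and adaptors, RRAS, a relative of HRAS, ran opposite to it after 48 h of BR-DIM. RRAS read 553.7 after 6 h of BR-DIM, 863.9 after 48 h of BR-DIM, 442.7 after 6 h of isoflavone and 639.2 after 72 h of isoflavone, against 401.5 in the control, and passed 2-fold after 48 h of BR-DIM (1.11). The exchange factors SOS1 and SOS2, which load RAS with GTP, had 0.76 and 0.83 after 48 h of BR-DIM and 0.72 and 0.76 after 72 h of isoflavone. Neither reached 2-fold. ARAF, a RAF kinase, had between -0.29 and -0.09 on the 4 arrays.
In the ERK branch, 0 of 6 measured genes reached 2-fold on any array. MAP2K1 and MAP2K2, the kinases that phosphorylate ERK, stayed between -0.12 and 0.09, and MAPK3, which is ERK1, had its lowest value of -0.64 after 72 h of isoflavone. Among 17 measured MAP kinase kinase kinases, MAP3K8, which feeds the ERK branch, was the one past 2-fold. It read 194.7 after 6 h of BR-DIM, 175.7 after 48 h of BR-DIM, 177.5 after 6 h of isoflavone and 235.1 after 72 h of isoflavone, against 98.5 in the control, which is close to the floor, and it passed 2-fold after 72 h of isoflavone (1.26).
In the p38 branch MAP2K6 was the one of 4 measured genes seen past 2-fold, while MAPK13 was limited by the floor on 2 arrays. The branch medians were -0.10 and -0.49 after 6 h and 48 h of BR-DIM, beside 0.07 and 0.06 over all measured genes. After 6 h and 72 h of isoflavone they were -0.87 and -0.44, beside 0.0035 and 0.05. These medians rest on 4 genes, of which MAP2K6 and MAPK13 are members. They include bounds of MAPK13 after 48 h of BR-DIM and 6 h of isoflavone, which could only be negative. After 6 h of BR-DIM MAPK11 (62.5, under the floor) gave such a bound too (-0.57). The p38 kinases MAPK11 and MAPK12 had 0.09 and -0.06 after 48 h of BR-DIM and -0.01 and -0.56 after 72 h of isoflavone. After 6 h of isoflavone they had -0.54 and -0.82, where MAPK11 read 99.7, close to the floor. In the JNK branch 0 genes passed 2-fold with signals raised to the floor. MAPK10, which is JNK3, was under the floor in the control (68.4) and read 187.0 after 48 h of BR-DIM and 179.7 after 72 h of isoflavone, which gives bounds of 0.95 and 0.89, so whether it passed 2-fold could not be measured. MAPK9, which is JNK2, stayed between -0.07 and 0.24, and MAP2K4, an activator of JNK, between -0.38 and 0.35.
The JNK scaffold genes MAPK8IP3 and MAPK8IP2 passed 2-fold in opposite directions. MAPK8IP3 read 161.1 after 6 h of BR-DIM, 265.7 after 48 h of BR-DIM, 242.5 after 6 h of isoflavone and 283.5 after 72 h of isoflavone, against 131.1 in the control, past 2-fold after 48 h of BR-DIM (1.02) and 72 h of isoflavone (1.11). MAPK8IP2 read 152.8 after 48 h of BR-DIM, against 305.8 in the control, just past 2-fold lower. Both lie near the rule of size and close to the floor.
Of 8 transcription factors, ATF2, a target of p38 and JNK, was higher after 48 h of BR-DIM (1008.5 against 464.9 in the control, log2 ratio 1.12), where its relative ATF7 was lower (297.4 against 659.0, -1.15). MEF2D, a p38 target, read 226.9 after 6 h of isoflavone, against 57.1 in the control, which is under the floor, and its log2 ratio of 1.22 is a bound. After 72 h of isoflavone ATF2 and ATF7 lay within 2-fold of the control, and MEF2D read 115.2, which gives only a bound of 0.25.

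**Figure D4:**
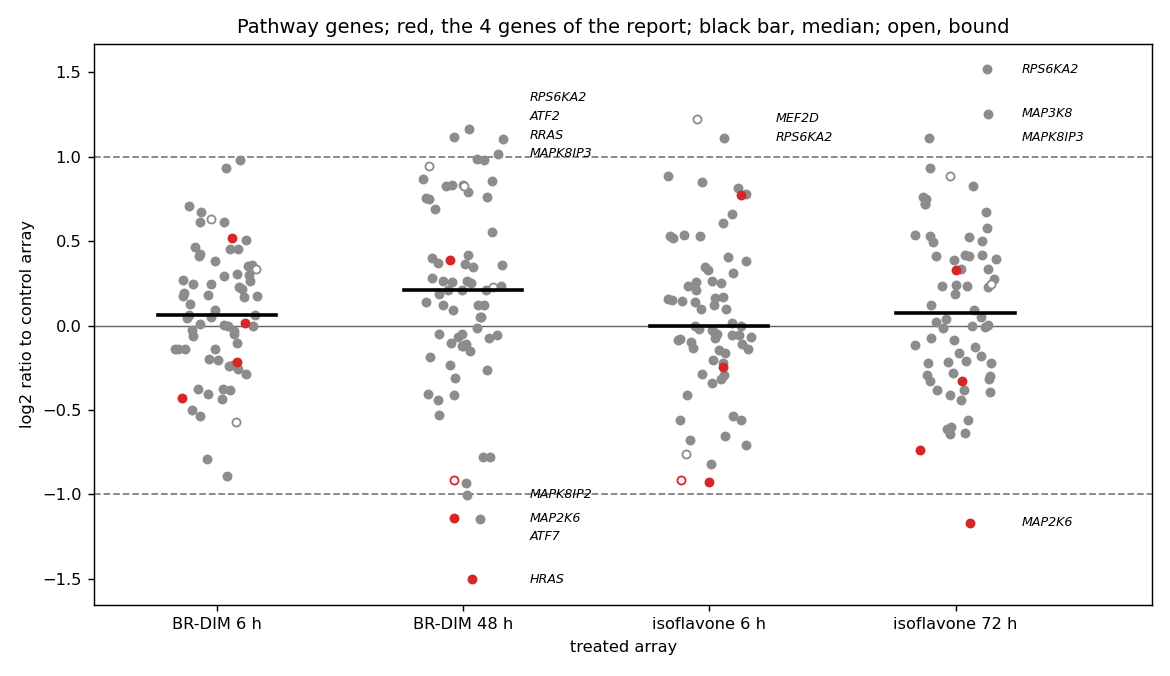
Each measured gene of the 85-gene pathway list is a point on each treated array, at its log2 ratio over the control on the vertical axis, by its brightest probe set, with 1 array per condition. Red points are HRAS, MAP2K6, MAPK13 and MAPK8, open points bounds at the floor, black bars medians, dashed lines 2-fold, and genes past 2-fold are named. Medians lie between -0.0041 and 0.21, and HRAS at -1.50 after 48 h of BR-DIM is the lowest filled point, while open points may lie further from 0 than drawn.

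The genes whose ratios over the 4 treated arrays were most like those of HRAS and MAP2K6 were found among 8389 genes that lay above the floor on all 5 arrays with a mean of at least 4 times the floor. For HRAS these were SPNS1, SH3BGRL3 and DPP3, with root mean square differences in log2 ratio of 0.10, 0.11 and 0.12. SPNS1 read 640.6 after 6 h of BR-DIM, 333.6 after 48 h of BR-DIM, 769.1 after 6 h of isoflavone and 473.6 after 72 h of isoflavone, against 897.5 in the control. Like HRAS it was lowest after 48 h of BR-DIM. For MAP2K6 by its brighter probe set they were SLC71A3P, MUL1 and ATAD3A, with differences of 0.14, 0.16 and 0.18. MUL1 read 489.2 after 6 h of BR-DIM, 320.5 after 48 h of BR-DIM, 366.1 after 6 h of isoflavone and 291.8 after 72 h of isoflavone, against 610.6 in the control. Likeness over 4 ratios that share 1 control array is a description of these arrays.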

How the data were processed

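The authors made the deposited intensity values from Human Genome U133 Plus 2.0 arrays with Data Mining Tool, MicroDB and Microarray Suite. Each probe set has 1 linear signal per array, scaled to a common level, and program versions, the scaling target and detection calls are not given in the sources used here. Of 54613 probe sets, 41091 carried 1 symbol, 1801 several and 11721 were not in the gene table used, and the last 2 kinds were left out. Symbols were updated by Entrez number. Ratios were taken with Python 3.11.15, numpy 2.4.6 and pandas 2.3.3 after raising signals to the floor of 97.1, and a probe set was measured if it lay above the floor on 1 of the arrays compared. The calculation of the 2-fold rule was checked on simulated data with changes of set size in bright probe sets only. Those changes carried no noise, so the outcome was fixed in advance and says nothing of the spread between arrays. That test does not cover ratios with a signal under the floor. The precision is limited by the number of arrays, 1 per condition. The members and lists were chosen with earlier results of these data known. The genes named are the members, the pathway genes past 2-fold, the nearest patterns and the markers; pathway genes within 2-fold, such as SOS1, SOS2, ARAF, MAP2K1, MAP2K2, MAPK3, MAPK9, MAPK10, MAPK11, MAPK12 and MAP2K4, were chosen after their values were seen. Other settings tried were a 1.5-fold rule, the mean of a gene's probe sets, leaving out the _s_at and _x_at probe sets, the floor used as a pseudocount, a higher floor (the upper quartile of all signals), no floor, quantile normalization, and scaling to the control by the median ratio. No replicate could be left out.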

Additional observations from a re-analysis of the deposited data

How the results depend on the processing

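Quantile normalization and median ratio scaling kept each count within 1.5 times and each member gene's side of 2-fold. Without a floor the member probe sets past 2-fold numbered 5 after 48 h of BR-DIM and 3 after 6 h of isoflavone, and 3, 2 and 2 between the BR-DIM times, the isoflavone times and the compounds at 6 h. MAPK13 then passed 2-fold after 48 h of BR-DIM (-1.34) and 6 h of isoflavone (-1.54), from signals under the floor. Pathway genes were then 2 higher and 1 lower after 6 h of BR-DIM, 2 lower after 6 h of isoflavone and 5 higher after 72 h of isoflavone. With the floor at the 75th percentile, member counts were 0 after 6 h of BR-DIM, 0 after 6 h of isoflavone and 1 after 72 h of isoflavone, since dim probe sets drop out, and pathway counts 2 higher and 2 lower after 48 h of BR-DIM and 1 higher on each isoflavone array, with a median of 0.12 after 6 h of isoflavone. With the pseudocount, members were 0 after 6 h of BR-DIM, and pathway counts 1 higher and 2 lower after 48 h of BR-DIM, 1 and 1 after 6 h of isoflavone and 1 higher after 72 h of isoflavone. Without _s_at and _x_at probe sets, members were 1 after 72 h of isoflavone, and 1 pathway gene, MAP2K6 by its dimmer probe set, was lower after 6 h of either compound.
The 1.5-fold rule gave 3 and 7 members at the times of BR-DIM, 5 after 6 h of isoflavone, and 4, 2 and 4 in the comparisons of treated arrays, and pathway counts of 7, 18, 9 and 11 higher and 2, 8, 7 and 6 lower on the 4 arrays. With the mean of all probe sets, 1 pathway gene was higher after 48 h of BR-DIM, 0 on either isoflavone array, and 1 lower after 6 h of isoflavone (MAP2K6, -1.09), with medians of 0.091 after 48 h of BR-DIM and -0.027 after 72 h of isoflavone. The fall of HRAS after 48 h of BR-DIM lay between -1.51 and -1.40 under all alternatives run, and that of MAP2K6 past 2-fold after 48 h of BR-DIM and 72 h of isoflavone in all of them. MAPK8, above the control by its brightest probe set, had -0.09 by the mean of its probe sets both after 48 h of BR-DIM and after 72 h of isoflavone.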
